A study of Mus musculus with 11 samples.

Results

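Blood and lymphatic endothelium of the mouse small intestine were compared as sorted bulk RNA: 2 libraries of cells carrying CD31 without LYVE1, here called blood libraries 1 and 2, against 2 libraries of cells carrying both, here called lymphatic libraries 1 and 2. These are 4 of the 8 bulk libraries and 4 of the 11 samples of the study, chosen by their labels. All came from C57BL/6 mice; no genetic change or treatment is given for these groups, and no age. The whole small intestine was stripped of muscle and epithelium, digested with collagenase, stained and sorted, and each library was built from between 5 and 10 ng of RNA. The gates used CD31 (the Pecam1 product) and LYVE1 alone, and the labels name no antibody against leukocytes or pericytes for these gates. The labels do not say whether replicates came from separate animals, so a p-value here covers the scatter of these libraries alone, and that scatter can be technical. As an independent view of which cell a transcript comes from, 2 single-cell libraries of whole intestinal mesenchyme were read, and cells with 2 or more UMIs of Cdh5 and Pecam1 together and none of Ptprc were taken as endothelial: 237 of 6128 cells in library 1 and 256 of 5927 in library 2.

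Both vessel types are lined by endothelium that shares VE-cadherin junctions and VEGF receptors. Blood capillaries of the gut exchange solutes, nutrients and hormones with the tissue through fenestrae, are wrapped in a continuous basement membrane and held by pericytes, and their fate is set by Notch, SOXF and shear-stress programmes. Lymphatic capillaries take up interstitial fluid, chylomicrons and migrating immune cells through flap-like junctions; PROX1 holds their identity, and VEGFR3 carries their main growth signal.

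Depth and purity differed between the groups. Total counts were 55382442 and 24664013 in the blood libraries and 8549348 and 14838594 in the lymphatic libraries. Genes that the single cells place in leukocytes or plasma cells took 3.42% and 4.01% of the counts of the blood libraries but 24.8% and 18.4% of those of the lymphatic libraries, and endothelial genes took 33.1% and 31.9% against 18.7% and 24.0%. In bulk samples, fewer cells of a type and less RNA per cell cannot be told apart. Values are therefore given under 2 scalings: TMM, the main one, and a scaling on 429 endothelial genes that were even between the blood and lymphatic sides of the single cells. The second moved the median log2 difference over all genes from 0.12 to -0.56. Levels are given as TMM-scaled CPM, counts brought to one common library size. Each pair of values is in the order of the libraries, and where levels are set against each other blood comes first unless the text says otherwise. A gene is called at an adjusted p below 0.05. The log2 differences are blood minus lymphatic with their standard error, and adjusted p-values are from edgeR's quasi-likelihood test. Unless a lost call is given, each call named below was also made with the endothelial scaling and with any 1 of the 4 libraries left out.

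**Figure D1:**
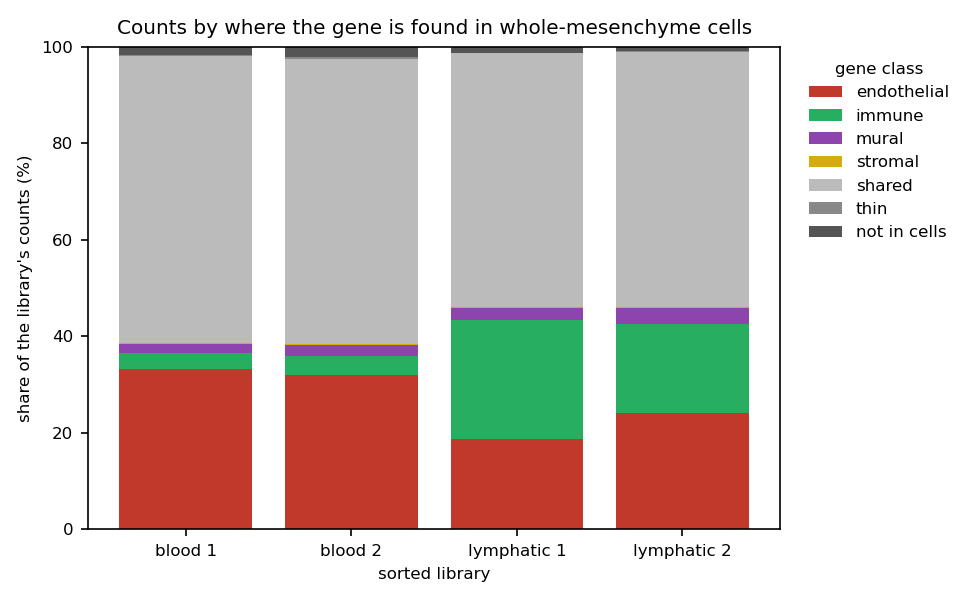
Share of each sorted library's counts (%, stacked bars) held by genes of each class, where the class says in which whole-mesenchyme cells the gene's UMIs are found; "shared" genes are not set apart and "thin" genes have under 10 UMIs. Immune-class genes take 24.8% and 18.4% of the lymphatic libraries and 3.42% and 4.01% of the blood libraries.

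The antigens of the sort and the defining genes were read first. Lyve1, the hyaluronan receptor used in the gate, was at 6.74 and 44.5 CPM in the blood libraries and 1919 and 3415 CPM in the lymphatic libraries (log2 -6.70 ± 1.02, adjusted p = 0.00319). Prox1, the transcription factor that specifies lymphatic endothelium, was at 4.28 and 4.9 CPM against 104 and 119 CPM (log2 -4.60 ± 0.74, adjusted p = 0.00367). Both follow the labels. In neither do the groups overlap, as was so for 60.2% of all genes tested. Pecam1, which both gates required, was at 802 and 909 CPM in the blood libraries and 123 and 198 CPM in the lymphatic libraries (log2 2.41 ± 0.62, adjusted p = 0.0225). That call did not hold with the endothelial scaling (log2 1.74, adjusted p = 0.0528), nor in 3 of the 4 fits without a library (adjusted p = 0.066 without blood library 2, 0.127 without lymphatic library 1 and 0.0848 without lymphatic library 2). Cdh5, VE-cadherin, was at 515 and 862 CPM against 65.1 and 52.1 CPM (log2 3.56 ± 0.63, adjusted p = 0.00535). The call of Cdh5 was lost with a library left out (adjusted p = 0.0597 without lymphatic library 2). In the single cells, where Cdh5 and Pecam1 served to pick the cells and so give a description only, Cdh5 was nearly level between lymphatic-side cells (557 and 531 CPM) and blood-side cells (598 and 577 CPM). Pecam1 was lower on the lymphatic side there (429 and 436 CPM against 1033 and 1054 CPM). Ptprc, the pan-leukocyte CD45, was present in all 4 libraries, at 126 and 156 CPM and 238 and 331 CPM, and was not called with TMM (log2 -1.01 ± 0.45, adjusted p = 0.134) but was with the endothelial scaling (log2 -1.68, adjusted p = 0.0235). In GRCm38 (GENCODE M21), Lyve1 lies on chromosome 7, 110850607 to 110863239, - strand, Prox1 on chromosome 1, 190118035 to 190170714, - strand, and Pecam1 on chromosome 11, 106654217 to 106750628, - strand. Ccl21a, the lymphatic chemokine, is listed at 0 in all 8 bulk libraries, as are its near-identical copies Ccl21b and Ccl21c, whereas lymphatic-side cells held it at 6499.5 and 6122.9 CPM; its bulk level was therefore not analysed.

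Most endothelial-rule cells could be put on a side. Cells went on the blood side by UMIs of Flt1, Emcn and Ptprb and on the lymphatic side by Prox1, Mmrn1 and Lyve1, which gave 138 and 147 blood-side cells and 70 and 70 lymphatic-side cells in the 2 libraries. Among genes not used for that, Plvap, the diaphragm protein of fenestrae, was at 3155 and 2784 CPM of summed UMIs on the blood side and 5.13 and 4.89 CPM on the lymphatic side. Reelin (Reln) was at 0 and 0 CPM on the blood side and 1673 and 1647 CPM on the lymphatic side. A further 29 and 39 endothelial-rule cells fell on neither side; they held Cdh5 at only 5.89 and 7.78 CPM and the antibody J chain, Jchain, at 50870 and 47211 CPM, where plasma-rule cells held Jchain at 66650 and 69697 CPM and blood-side cells at 351 and 379.7 CPM. They were left out of the sides but stayed in the endothelial sums that set the class of each gene. There they held 339809 of 1506647 UMIs in library 1 and 385719 of 1616148 in library 2. Emcn, a blood marker of the split, was itself at 477 and 414 CPM on the blood side and 606 and 570.2 CPM on the lymphatic side. Just inside the rule lay 43 and 50 cells with exactly 2 UMIs of Cdh5 and Pecam1, and just outside it 164 and 146 cells with 1; 359 and 330 cells had 2 or more of these UMIs but also Ptprc. The 2 libraries shared 7 barcodes among the cells kept.

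The promoters below show what sequence lies before genes at the 2 ends of the comparison: Flt1 and Slco2a1, high in blood endothelium, and Prox1 and Reln, high in lymphatic endothelium. Each is a stretch of 150 bases upstream of the first RefSeq start listed for the gene (GRCm38.p6, 5′ to 3′ on the gene's strand), in lower case with matches to the ETS-type motif AGGAAG or its reverse complement in capitals. The stretches are chr5:147726012-147726161 (minus strand) for Flt1, chr9:103008337-103008486 (plus strand) for Slco2a1, chr1:190170828-190170977 (minus strand, the first of 2 listed starts) for Prox1, and chr5:22344706-22344855 (minus strand) for Reln.
Flt1: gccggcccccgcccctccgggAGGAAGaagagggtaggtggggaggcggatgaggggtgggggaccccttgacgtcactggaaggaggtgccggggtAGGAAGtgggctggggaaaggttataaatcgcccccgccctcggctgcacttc
Slco2a1: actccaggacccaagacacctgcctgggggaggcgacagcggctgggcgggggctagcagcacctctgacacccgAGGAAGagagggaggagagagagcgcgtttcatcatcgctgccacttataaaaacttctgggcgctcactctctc
Prox1: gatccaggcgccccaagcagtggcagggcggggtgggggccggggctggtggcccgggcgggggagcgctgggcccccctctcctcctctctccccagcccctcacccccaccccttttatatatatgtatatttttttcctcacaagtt
Reln: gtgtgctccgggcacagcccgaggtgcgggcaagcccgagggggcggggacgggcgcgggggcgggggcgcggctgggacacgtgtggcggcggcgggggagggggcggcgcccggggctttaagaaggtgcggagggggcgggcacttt
The motif stands 2 times in the Flt1 stretch and 1 time in that of Slco2a1, and in neither of the other pair. Over 250 upstream bases and on both strands, it was found before 29.9% of the 589 endothelial-class genes higher in blood, 21.9% of the 137 higher in lymphatic endothelium and 28.6% of all 11635 tested genes with a listed promoter. The letters AACAAT, a SOX-type motif, were found before 5.94%, 5.11% and 5.41% of the same sets. A match is a run of letters and not a measured binding site.

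Over all genes, blood endothelium was the richer side with TMM scaling. Of 14893 genes tested, 2183 (14.7%) were higher in blood endothelium and 1239 (8.32%) were higher in lymphatic endothelium. With the endothelial scaling the split turned: 1118 genes (7.51%) were higher in blood and 3718 (25.0%) in lymphatic endothelium, with no call reversed. All 1239 lymphatic calls and 1118 of the 2183 blood calls held under both scalings. Counts also depended on single libraries: without lymphatic library 2 they were 770 and 398, without lymphatic library 1 they were 1206 and 777, and without blood library 2 they were 1716 and 700. The share of calls differed between genes of the endothelial and immune classes. Of 2576 endothelial-class genes, 767 (29.8%) were higher in blood and 178 (6.91%) in lymphatic endothelium. Of 1122 immune-class genes, 25 (2.23%) were higher in blood and 213 (19.0%) in the lymphatic libraries. For 1076 mural-class genes the counts were 177 (16.45%) and 95 (8.83%), near the shares of all genes. The lists below hold 662 tested genes, of which 309 were called. In all 309 the blood and lymphatic libraries did not overlap, as also in 192 of those not called. The counts of each list are to be read beside the shares of all genes. These are 14.7% and 8.32% with TMM and 7.51% and 25.0% with the endothelial scaling.

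The genes below had the largest differences among endothelial-class genes. In blood endothelium they included Scgb3a1, a small secreted secretoglobin, at 5548 and 2367 CPM against 65.3 and 13.2 CPM (log2 6.66 ± 0.92, adjusted p = 0.00227). Ace, angiotensin-converting enzyme, was at 355 and 459 CPM against 8.78 and 3.23 CPM (log2 6.12 ± 0.74, adjusted p = 0.00167). The transcription factor Mecom (85 and 258 against 2.57 and 1.55 CPM), the laminin-binding integrin subunit Itgb4 (38.1 and 99.3 against 0.675 and 1.08 CPM), the Rap exchange factor Rapgef4 (291 and 658 against 9.05 and 4.03 CPM), and the membrane protein Efr3b and ephrin receptor Epha4 belong to the same 8, with log2 differences of 6.42, 6.23, 6.20, 6.18 and 6.07. The protocadherin Pcdh17 completes them at 373 and 2042 against 15.1 and 11.8 CPM (log2 6.49 ± 1.10, adjusted p = 0.00453). The call of Pcdh17 was lost with a library left out (adjusted p = 0.059 without lymphatic library 2). In lymphatic endothelium, 7 of the 8 were at no more than 2.39 CPM in either blood library, and Mmrn1 was above that. Tnfaip8l3, a lipid-transfer protein, was at 0.0473 and 0.209 CPM against 42.4 and 69.6 CPM (log2 -8.88 ± 0.79, adjusted p = 0.00122), and the channel Pkd2l1 at 0 and 0.126 CPM against 17 and 29.9 CPM (adjusted p = 0.00266). The membrane glycoprotein Gpm6a was at 0.827 and 2.01 against 229 and 513 CPM and Mmrn1, the matrix protein multimerin, at 5.13 and 19.5 against 1431 and 3362 CPM. The amino-acid transporter Slc38a4, the solute carrier Slc45a3, the endophilin Sh3gl3 and the unnamed 1810008I18Rik were the others, at 21.1 and 46.1, 80.6 and 152, 167 and 255 and 17 and 24.9 CPM in the lymphatic libraries. For Mmrn1, as a split gene, the single cells give no further view. The other 7 were at no more than 1.29 CPM on the blood side and between 12.2 and 328 CPM on the lymphatic side.

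**Figure D2:**
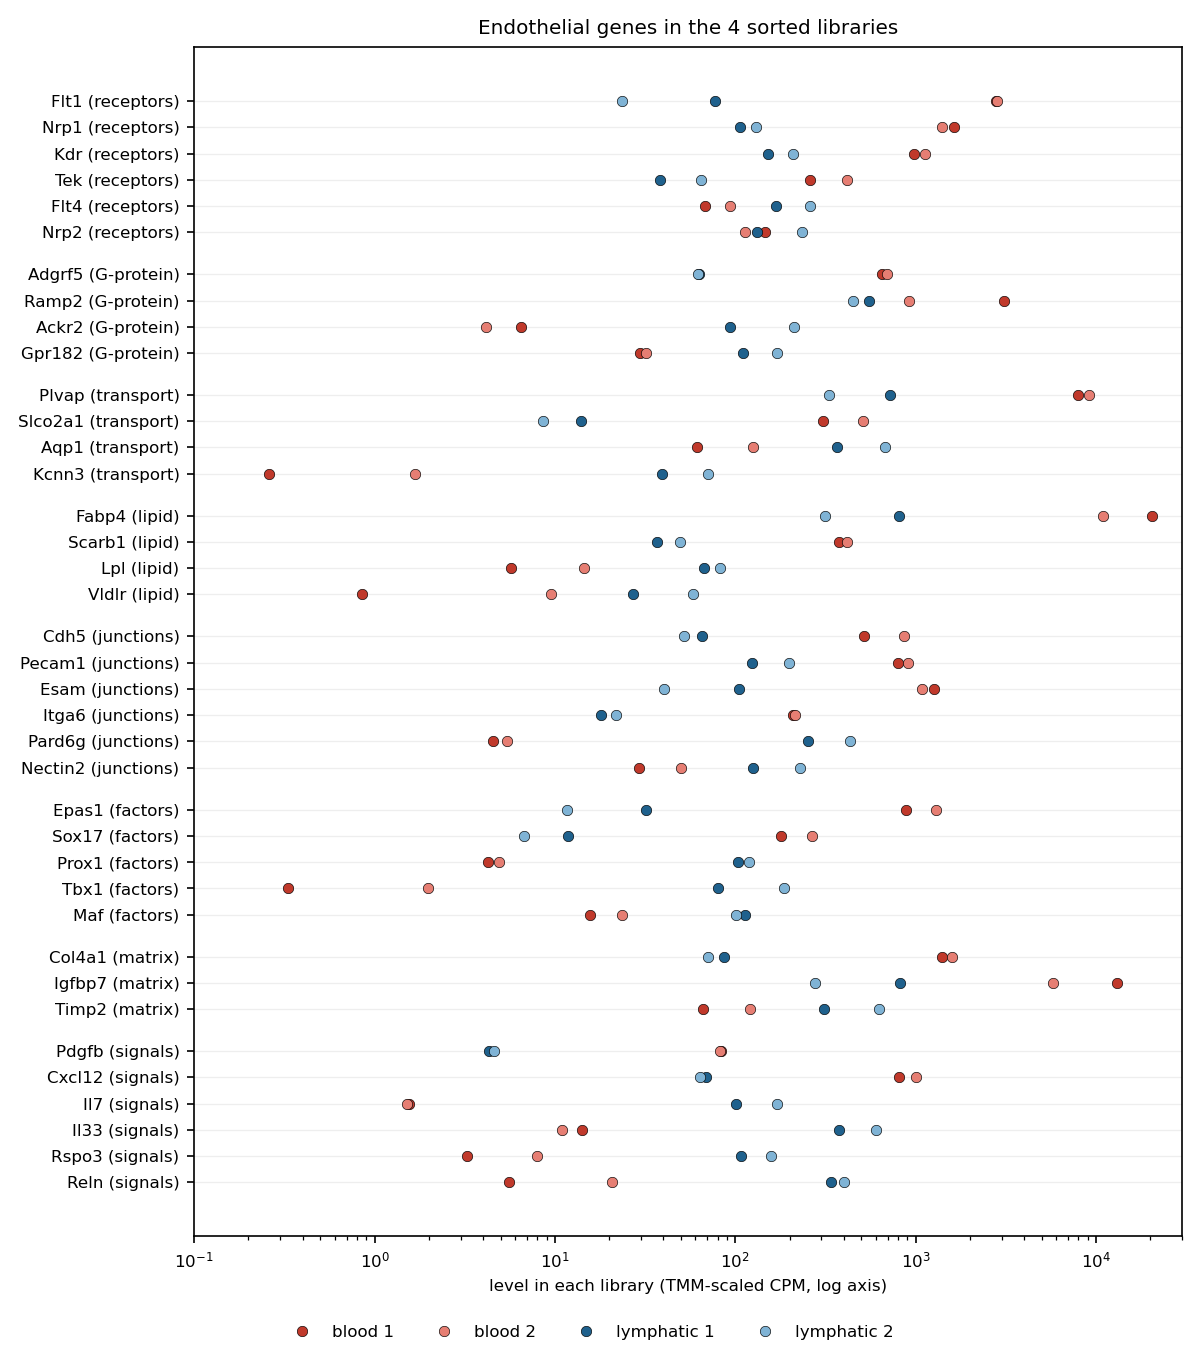
Level of 38 endothelial genes (horizontal axis, TMM-scaled CPM, log scale) in each of the 4 sorted libraries (points), grouped by role. Red points (blood) and blue points (lymphatic) lie apart in most rows; in that of Nrp2 they mix, at 145 and 114 CPM against 132 and 234 CPM.

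Growth-factor receptors leaned to blood endothelium. Of 32 tested, 19 were higher in blood and none in lymphatic endothelium (16 and 1 with the endothelial scaling), and their median log2 difference was 1.88, beside 0.12 over all genes. Flt1, the VEGF receptor that mainly acts as a decoy and whose upstream stretch is printed above, was at 2784 and 2829 CPM against 77.5 and 23.5 CPM (log2 5.80 ± 0.81, adjusted p = 0.00234). Nrp1, the VEGF and semaphorin co-receptor of blood vessels, was at 1626 and 1402 CPM against 107 and 131 CPM (log2 3.67 ± 0.46, adjusted p = 0.00177), and in the single cells at 762 and 635 CPM on the blood side and 0 and 7.34 CPM on the lymphatic side. Tek, the angiopoietin receptor TIE2, was at 259.7 and 418 CPM against 38.1 and 64.6 CPM (log2 2.72 ± 0.47, adjusted p = 0.00491). Among BMP receptors, Acvrl1 was at 377 and 431 CPM against 68.5 and 113 CPM (log2 2.15 ± 0.36, adjusted p = 0.00442) and Bmpr2 at 221 and 166 CPM against 24.4 and 18.6 CPM (log2 3.17 ± 0.40, adjusted p = 0.00177). Lifr, the receptor of leukaemia inhibitory factor, was at 232 and 285 against 33.9 and 55 CPM in bulk, and its sides differed in the same direction (423 and 439 against 35.9 and 46.5 CPM).

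The VEGF receptors of lymphatic growth stood closer together in the sorted libraries than in the single cells. Flt4, which encodes VEGFR3, was at 68.3 and 93.5 CPM in the blood libraries and 167 and 258 CPM in the lymphatic libraries, groups that do not overlap but were not called (log2 -1.40 ± 0.68, adjusted p = 0.166). Its sides in the single cells stood far apart, at 56.6 and 64.5 CPM and 1796 and 1767 CPM. Nrp2, its co-receptor, was likewise not called (145 and 114 against 132 and 234 CPM; log2 -0.50 ± 0.37, adjusted p = 0.353) though it was with the endothelial scaling (log2 -1.18, adjusted p = 0.0284). Its sides were 217 and 231 CPM (blood) and 1288 and 1378 CPM (lymphatic). Kdr, the main VEGF receptor of both vessel types, was higher in blood endothelium in bulk (986 and 1134 against 152 and 209.9 CPM; log2 2.55 ± 0.59, adjusted p = 0.0149; adjusted p = 0.0925 without lymphatic library 1 and 0.0758 without lymphatic library 2) while its single-cell level was higher on the lymphatic side (1206 and 1077 CPM against 601 and 601 CPM). Tgfbr2 and Tie1, the 2 most abundant receptors not called, were at 450.1 and 562 against 155 and 326 CPM and 194 and 290 against 59.7 and 158 CPM. Pdgfrb and Pdgfra, the PDGF receptors of pericytes and fibroblasts, were called as well and are of the mural class by the single cells. Pdgfrb was at 14.1 and 56 CPM against 2.43 and 0.538 CPM and at 159.9 and 183 CPM in mural-rule cells, and Pdgfra at 1.89 and 30.2 against 0.54 and 0.941 CPM (adjusted p = 0.145 without blood library 2, 0.129 without lymphatic library 1 and 0.138 without lymphatic library 2), with its counts mainly in blood library 2.

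Of 30 G-protein-coupled receptors and their partners, 11 were higher in blood endothelium and 4 in the lymphatic libraries (8 and 7 with the endothelial scaling; median log2 0.94). Adgrf5, an adhesion receptor of capillary endothelium, was at 650.1 and 697 CPM against 62.8 and 62 CPM (log2 3.43 ± 0.51, adjusted p = 0.00285). Adgrg1 was at 169 and 319.6 against 9.45 and 9.61 CPM (log2 4.68 ± 0.67, adjusted p = 0.00257). F2rl3, the thrombin receptor PAR4, was at 40.1 and 29.1 against 3.65 and 0.807 CPM. The adrenomedullin pair Ramp2 and Calcrl was higher in blood endothelium with TMM (log2 1.99 ± 0.54, adjusted p = 0.0282 for Ramp2 and log2 1.54 ± 0.47, adjusted p = 0.0412 for Calcrl). Neither call held with the endothelial scaling (adjusted p = 0.0876 and 0.152), and both were lost without a library (for Ramp2, adjusted p = 0.119 without blood library 1, 0.0948 without lymphatic library 1 and 0.152 without lymphatic library 2; for Calcrl, 0.0683 without blood library 1, 0.116 without blood library 2, 0.178 without lymphatic library 1 and 0.0568 without lymphatic library 2). On the lymphatic side stood Ackr2, the decoy receptor that clears inflammatory chemokines, at 6.48 and 4.15 CPM against 93.4 and 212 CPM (log2 -4.84 ± 0.62, adjusted p = 0.00191). Its single-cell levels were 0 and 0 CPM on the blood side and 118 and 122 CPM on the lymphatic side. Gpr182, a chemokine scavenger, was at 29.5 and 31.8 against 111 and 170.2 CPM (log2 -2.20 ± 0.43, adjusted p = 0.00801; adjusted p = 0.0649 without lymphatic library 2). F2rl1, the protease-activated receptor PAR2, was at 1.02 and 0.712 against 8.51 and 10 CPM (log2 -3.40 ± 0.60, adjusted p = 0.00505). The fourth, the prostaglandin receptor Ptger4, was at 7.33 and 7.54 against 31.7 and 83.4 CPM, but the single cells place it in the mural class (53 and 53.4 CPM in mural-rule cells against 2.57 and 7.34 CPM on the lymphatic side). S1pr1, the sphingosine-phosphate receptor, and Ackr3 were the most abundant not called (adjusted p = 0.155 and 0.483).

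Transport genes were called in both directions. Of 48 tested, 16 were higher in blood and 7 in the lymphatic libraries (11 and 8 with the endothelial scaling, median log2 0.58). Over all genes the shares were 14.7% and 8.32%, or 7.51% and 25.0% with the endothelial scaling. Endothelial-class genes made 12 of the 16 blood calls and 4 of the 7 lymphatic calls. Plvap, which builds the diaphragms of fenestrae, was at 7948 and 9167 CPM in the blood libraries and 719 and 331 CPM in the lymphatic libraries (log2 4.03 ± 0.66, adjusted p = 0.00409). Ehd4, a membrane-trafficking ATPase, was at 929.8 and 906 against 100.5 and 143 CPM (log2 2.91 ± 0.47, adjusted p = 0.00368). Slco2a1, the prostaglandin transporter, was at 305 and 513 CPM against 13.9 and 8.61 CPM (log2 5.19 ± 0.58, adjusted p = 0.00129). The sides of Slco2a1 were at 1359 and 1521 CPM (blood) and 35.9 and 12.2 CPM (lymphatic). The efflux pump Abcb1a (99.8 and 239 against 19 and 7.33 CPM), the lactate carrier Slc16a1 (53.7 and 54.3 against 15 and 14.7 CPM) and the calcium pump Atp2b4 (136 and 153 against 18.2 and 16.1 CPM) were also higher in blood endothelium (adjusted p = 0.00302, 0.00535 and 0.00119). In lymphatic endothelium, the calcium-activated potassium channel Kcnn3 was at 0.26 and 1.68 CPM against 39 and 70.5 CPM (log2 -5.90 ± 0.85, adjusted p = 0.0026). On the sides Kcnn3 was at 6.43 and 8.52 CPM (blood) and 385 and 382 CPM (lymphatic). The water channel Aqp1 was at 61.5 and 126 against 367 and 672 CPM (log2 -2.48 ± 0.78, adjusted p = 0.0477); its call was lost in every fit without a library (adjusted p = 0.185 without blood library 1, 0.0915 without blood library 2, 0.0778 without lymphatic library 1 and 0.208 without lymphatic library 2), while its sides were 190.4 and 183 CPM (blood) and 3192 and 2773 CPM (lymphatic). Slc7a5, an amino-acid carrier, was called for the lymphatic libraries at low level (1.42 and 2.3 against 7.83 and 6.25 CPM; log2 -1.92 ± 0.40, adjusted p = 0.0106). Its single-cell level was higher in plasma-rule cells (31.2 and 24.2 CPM) and leukocyte-rule cells (25.2 and 25.3 CPM) than on the lymphatic side (12.8 and 9.79 CPM), and the part of those cells in its call was not tested. The monocarboxylate carrier Slc16a9 was at 2.29 and 3.1 against 9.59 and 14.7 CPM (for Slc16a9, adjusted p = 0.0544 without lymphatic library 2). The caveola coat protein Cav1 was not called (1393 and 1482 against 824 and 1729 CPM; log2 0.17 ± 0.54, adjusted p = 0.848). Cavin2, its partner, was not called with TMM (771 and 538 against 1202 and 2009.7 CPM; adjusted p = 0.142) but was higher in lymphatic endothelium with the endothelial scaling (adjusted p = 0.0314).

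Of 42 lipid genes, 9 were higher in blood and 4 in the lymphatic libraries (6 and 13 with the endothelial scaling; median log2 -0.06). These shares are not far from those of all genes, 14.7% and 8.32%, or 7.51% and 25.0% with the endothelial scaling, so the members are given one by one. Fabp4, the fatty-acid carrier of capillaries, reached 20466 and 11008 CPM in blood endothelium against 812 and 314 CPM (log2 4.80 ± 0.77, adjusted p = 0.00375). Its relative Fabp5 was at 901 and 166 against 34.8 and 9.41 CPM (log2 4.60 ± 0.94, adjusted p = 0.00931). The call of Fabp5 was lost with a library left out (adjusted p = 0.075 without lymphatic library 2). Scarb1, the HDL receptor, was at 375 and 418 against 36.9 and 49.6 CPM (log2 3.20 ± 0.37, adjusted p = 0.00139). On the sides Scarb1 was at 323 and 256 CPM (blood) and 2.57 and 0 CPM (lymphatic). The acyl-CoA synthetase Slc27a3 was at 21.1 and 23 against 1.76 and 0.807 CPM (adjusted p = 0.00137). Plpp3, which dephosphorylates lysophosphatidic acid, was at 2124 and 2158 against 252 and 353 CPM (log2 2.82 ± 0.44, adjusted p = 0.00337). Cd36, the fatty-acid translocase, was called with TMM (1119 and 1238 against 219 and 406 CPM; log2 1.91 ± 0.56, adjusted p = 0.0379) but not with the endothelial scaling (adjusted p = 0.106) or in any fit without a library (adjusted p = 0.0732 without blood library 1, 0.0985 without blood library 2, 0.178 without lymphatic library 1 and 0.0827 without lymphatic library 2). In the lymphatic libraries, lipoprotein lipase (Lpl) was at 5.7 and 14.5 CPM against 67.4 and 82.4 CPM (log2 -2.90 ± 0.60, adjusted p = 0.01). The call of Lpl was lost with a library left out (adjusted p = 0.0591 without lymphatic library 2). The VLDL receptor Vldlr was at 0.851 and 9.55 against 27.1 and 58.1 CPM (log2 -3.06 ± 0.88, adjusted p = 0.0352; adjusted p = 0.0618 without lymphatic library 1 and 0.184 without lymphatic library 2), and the lipase inhibitor Angptl4 at 3.92 and 2.47 against 23.6 and 25.7 CPM (log2 -2.94 ± 0.60, adjusted p = 0.00942). The call of Angptl4 was lost with a library left out (adjusted p = 0.0616 without blood library 2 and 0.0554 without lymphatic library 2). All 3 were also higher on the lymphatic side of the single cells, Vldlr at 144 and 117 CPM against 1.29 and 2.43 CPM. None of the lymphatic calls of this list is an endothelial-class gene. Lpl had UMIs in 60% and 57.1% of lymphatic-side cells and 50% and 51.1% of mural-rule cells. For Angptl4 these shares were 8.57% and 18.6% against 33.6% and 35.6%, and for Vldlr 52.9% and 44.3% against 10.6% and 9.53%. The part of mural and stromal cells in these calls was not tested. Gpihbp1, which carries the lipase across capillary endothelium, was not called (466 and 94.3 against 467 and 446 CPM; adjusted p = 0.497), and on the sides it was at 47.6 and 11 CPM (blood) and 457 and 409 CPM (lymphatic). The fourth lymphatic call, Apoe, stands against the single cells and is given with the carry-over below.

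Central metabolism gave few calls with TMM. Of 54 genes, 7 were higher in blood and 5 in the lymphatic libraries, shares near the 14.7% and 8.32% of all genes. With the endothelial scaling 24 were higher in the lymphatic libraries and 5 in blood, where 25.0% and 7.51% of all genes were called. The blood calls included enzymes of the vessel surface: Ace, given above, and Car4, a carbonic anhydrase anchored to capillary membranes, at 818 and 472 CPM against 68.5 and 36.1 CPM (log2 3.63 ± 0.59, adjusted p = 0.00388). Nos3, endothelial nitric oxide synthase, was at 82.6 and 79.3 against 14.7 and 11.2 CPM (log2 2.65 ± 0.56, adjusted p = 0.011). The call of Nos3 was lost with a library left out (adjusted p = 0.055 without lymphatic library 1 and 0.0946 without lymphatic library 2). Sod1, superoxide dismutase, was at 353 and 261 against 75.7 and 44.7 CPM (log2 2.35 ± 0.37, adjusted p = 0.00338). Glutamine synthetase (Glul) was at 215 and 228 against 55.1 and 40.4 CPM (log2 2.22 ± 0.41, adjusted p = 0.00618). The call of Glul was lost with a library left out (adjusted p = 0.0597 without lymphatic library 2). Hk2, a hexokinase, was highest in blood library 2 and called with TMM (45.7 and 331 CPM against 29 and 17.6 CPM; adjusted p = 0.137 without blood library 2, 0.0829 without lymphatic library 1 and 0.156 without lymphatic library 2) and not with the endothelial scaling (adjusted p = 0.0509). Hk2 had UMIs in 3.62% and 4.08% of blood-side, 38.5% and 33.65% of leukocyte-rule and 23.85% and 24.5% of stroma-rule (Pdgfra) cells. The part of those other cells in its call was not tested. Of the glycolytic genes that angiogenic endothelium is known for, Pfkfb3 was at 136 and 55.3 against 38.6 and 41 CPM and Ldha at 756 and 580.1 against 478 and 418 CPM, and neither was called (adjusted p = 0.12 and 0.276). Among the lymphatic calls, G6pdx, the entry of the pentose phosphate pathway, was at 18.9 and 22.5 against 50.1 and 70.7 CPM (log2 -1.55 ± 0.32, adjusted p = 0.0103). The call of G6pdx was lost with a library left out (adjusted p = 0.0691 without lymphatic library 2). It is of the shared class, at 2.57 and 7.34 CPM on the lymphatic side and 7.72 and 6.08 CPM on the blood side. The extracellular peroxidase Gpx3 was at 82.5 and 84.4 against 442 and 799.5 CPM (log2 -2.90 ± 0.48, adjusted p = 0.00408), and the single cells place it in the mural class.

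By number, junction and adhesion genes were the list with the most blood calls. Of 62 tested, 34 were higher in blood and 5 in lymphatic endothelium (27 and 8 with the endothelial scaling, median log2 2.12). Over all genes the shares with TMM were 14.7% and 8.32%. Larger shares of blood calls were found for arterial and Notch genes (19 of 26), matrix genes (25 of 42) and growth-factor receptors (19 of 32). Of the 62 junction and adhesion genes, 41 are endothelial-class, of which 27 were higher in blood and 3 in lymphatic endothelium. Esam, an adhesion molecule of tight junctions, was at 1257 and 1084 CPM against 105 and 40.1 CPM (log2 4.01 ± 0.64, adjusted p = 0.0037). On the sides Esam was at 803 and 775 CPM (blood) and 12.8 and 12.2 CPM (lymphatic). Its relatives Jam2 and Jam3 were at 454 and 381 against 27.4 and 13.4 CPM and 296 and 196 against 28.9 and 24.2 CPM (adjusted p = 0.00126 and 0.00127). Podxl, the apical sialomucin, was at 1024 and 1079 against 70.5 and 80.7 CPM (log2 3.80 ± 0.48, adjusted p = 0.00179). Cd200, an immune-restraining surface protein, was at 1321 and 3065 against 193 and 189.8 CPM (log2 3.52 ± 0.52, adjusted p = 0.00283). Ptprb, the phosphatase VE-PTP that acts on TIE2 and VE-cadherin, was at 914 and 819.9 against 53.9 and 35.6 CPM (log2 4.28 ± 0.67, adjusted p = 0.00344). The laminin receptor subunits Itga6 and Itga3 were at 209 and 213 against 18.1 and 21.7 CPM and 11.8 and 20.2 against 0.405 and 0.269 CPM (adjusted p = 0.00191 and 0.00175). The tight-junction scaffold Tjp1 (ZO-1) was higher in blood libraries (135 and 127 against 32.4 and 29.6 CPM; log2 2.08 ± 0.30, adjusted p = 0.00253), while its sides were close, at 215 and 203 CPM (blood) and 189.9 and 157 CPM (lymphatic).

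The lymphatic calls of this list include a polarity protein. Pard6g, a PAR6 polarity subunit, was at 4.52 and 5.4 CPM in blood and 254 and 435 CPM in lymphatic endothelium (log2 -6.12 ± 0.49, adjusted p = 0.000753). The single cells held Pard6g at 3.86 and 4.87 CPM (blood) and 769.8 and 795 CPM (lymphatic) on the sides. Nectin2 was at 29.4 and 49.7 against 125 and 229.8 CPM (log2 -2.17 ± 0.42, adjusted p = 0.00784; adjusted p = 0.0576 without lymphatic library 2). Cldn5, the claudin of endothelial tight junctions, was not called (149 and 199 against 329.8 and 564 CPM; log2 -1.36 ± 0.67, adjusted p = 0.168), and neither was Ctnnb1, beta-catenin (397 and 426 against 135 and 260.3 CPM; log2 1.06 ± 0.39, adjusted p = 0.0782). Of the leukocyte adhesion genes, Sele (E-selectin) was called (21.4 and 132 against 1.35 and 1.14 CPM; log2 5.95 ± 1.37, adjusted p = 0.0151). The call of Sele was lost with a library left out (adjusted p = 0.0671 without blood library 2, 0.0934 without lymphatic library 1 and 0.128 without lymphatic library 2). Selp, P-selectin, was not (76.2 and 149 against 15.7 and 9.01 CPM; log2 3.20 ± 1.37, adjusted p = 0.122), although its sides stood at 2625 and 2748 CPM (blood) and 0 and 0 CPM (lymphatic). Icam1 was at 209 and 172 against 250.2 and 368 CPM and Vcam1 at 50.1 and 125 against 87.1 and 126 CPM, with adjusted p = 0.397 and 0.672.

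**Figure D3:**
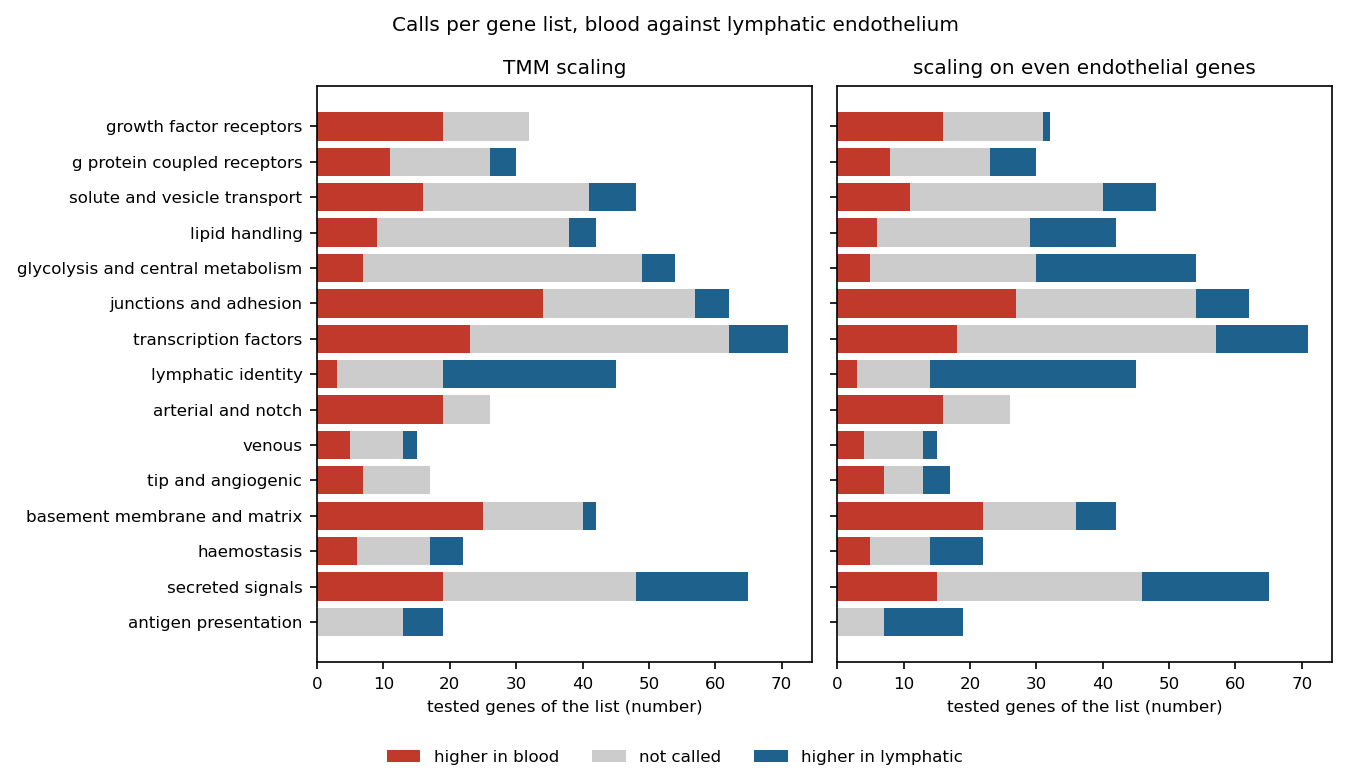
Tested genes of each of the 15 endothelial lists (horizontal axis, number of genes) called higher in blood (red), higher in lymphatic endothelium (blue) or not called (grey), with TMM scaling (left) and with scaling on even endothelial genes (right). By number and not by share of the list, junctions have the most blood calls, 34 of 62. Lymphatic identity has the most lymphatic calls with TMM, 26. Glycolysis and central metabolism moves from 5 to 24 lymphatic calls between the scalings.

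Of 71 transcription factors tested, 23 were higher in blood and 9 in lymphatic endothelium (18 and 14 with the endothelial scaling; median log2 0.71). Epas1, the hypoxia-inducible factor HIF2α, was at 881 and 1289.6 CPM against 31.9 and 11.6 CPM (log2 5.65 ± 0.82, adjusted p = 0.0027). Epas1 stood at 1184 and 1194 CPM (blood) and 61.6 and 80.8 CPM (lymphatic) on the sides. Sox17, an arterial SOXF factor, was at 179 and 266 against 11.9 and 6.72 CPM (log2 4.60 ± 0.53, adjusted p = 0.00143), whereas Sox18, its relative that switches on Prox1 in development, was not called (222 and 211 against 71.8 and 199 CPM; log2 0.67 ± 0.48, adjusted p = 0.333). Foxf1, Tbx3 and the BMP-signal inhibitor Smad6 were at 66.1 and 96.6, 19 and 48.6 and 38.1 and 42.1 CPM in the blood libraries and at 5.94 and 6.39, 0.54 and 0.672 and 2.57 and 2.82 CPM in the lymphatic libraries (adjusted p = 0.00126, 0.00139 and 0.00114). Foxf1 had UMIs in 29.7% and 22.4% of blood-side cells but 55.9% and 56.7% of mural-rule cells. For Tbx3 these shares were 15.9% and 10.9% against 20.4% and 20%, and for Smad6 18.8% and 15% against 10.1% and 10.2%. The part of mural cells in these 3 calls was not tested. Klf2, the shear-stress factor, was at 1149 and 804 against 198 and 192 CPM (log2 2.32 ± 0.55, adjusted p = 0.0172; adjusted p = 0.0566 without blood library 1, 0.0849 without lymphatic library 1 and 0.106 without lymphatic library 2). Its sides were 2276 and 2212 CPM (blood) and 585 and 536 CPM (lymphatic). Its relative Klf4 was also called (263 and 265 against 59.9 and 51 CPM; log2 2.25 ± 0.37, adjusted p = 0.00406), but its single-cell level was higher on the lymphatic side (1193 and 981 against 737 and 749.6 CPM). Nfib was called too (459 and 508 against 85.3 and 131 CPM; log2 2.16 ± 0.39, adjusted p = 0.0058) with nearly level sides, at 793 and 753 CPM (blood) and 795 and 829.6 CPM (lymphatic). The pan-endothelial ETS factor Fli1 did not differ beyond the spread (107 and 78.2 against 81.4 and 108 CPM; log2 -0.03 ± 0.33, adjusted p = 0.96), and Erg was higher in blood (114 and 92.2 against 18.8 and 34.5 CPM; log2 1.95 ± 0.41, adjusted p = 0.0102). The call of Erg was lost with a library left out (adjusted p = 0.0605 without lymphatic library 1).

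The lymphatic factors were led by Prox1, given above, and Tbx1, a T-box factor required for gut lymphatics, which was at 0.331 and 1.97 CPM against 80.7 and 186 CPM (log2 -6.92 ± 0.85, adjusted p = 0.00175) and at 0 and 0 CPM (blood) and 272 and 252 CPM (lymphatic) on the sides. Maf was at 15.6 and 23.5 against 113 and 101 CPM (log2 -2.45 ± 0.35, adjusted p = 0.0026). On the sides Maf was at 33.5 and 31.6 CPM (blood) and 2140 and 1933 CPM (lymphatic). Foxp2, a factor of collecting lymphatics, was at 0.615 and 0.293 against 4.05 and 8.61 CPM (log2 -3.75 ± 0.55, adjusted p = 0.00355). Klf6 was at 369 and 296 against 987 and 1104 CPM (log2 -1.65 ± 0.34, adjusted p = 0.00971). It had UMIs in 85.7% and 88.6% of lymphatic-side, 59.9% and 60.45% of leukocyte-rule and 75.6% and 72.05% of plasma-rule cells. Foxp2 had them in 22.9% and 22.9% of lymphatic-side and 27.2% and 30.3% of stroma-rule cells. The part of these other cells in either call was not tested. Of the 9 lymphatic calls of the list, 7 are endothelial-class genes. Foxc2, the valve factor, was called at low levels (1.21 and 1.01 against 3.65 and 6.66 CPM; log2 -2.22 ± 0.69, adjusted p = 0.046), a call lost without any of the 4 libraries (adjusted p = 0.0991 without blood library 1, 0.134 without blood library 2, 0.0694 without lymphatic library 1 and 0.24 without lymphatic library 2). Nr2f2, which acts upstream of Prox1 and in veins, was at 39.1 and 50.7 against 99.9 and 92.9 CPM (log2 -1.10 ± 0.30, adjusted p = 0.0275; adjusted p = 0.0868 without blood library 1, 0.0899 without lymphatic library 1 and 0.0859 without lymphatic library 2). On the sides Nr2f2 was at 91.4 and 149.7 CPM (blood) and 706 and 744 CPM (lymphatic).

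Of 45 lymphatic identity genes tested, 26 were higher in lymphatic endothelium and 3 in blood (31 and 3 with the endothelial scaling; median log2 -2.44). Many were chosen as known lymphatic markers, so their direction is a check of the sort more than a finding. The siderophore-binding lipocalin Lcn2 was at 7.9 and 8.13 CPM against 539 and 577 CPM (log2 -6.12 ± 0.87, adjusted p = 0.0025), and the ion-pump regulator Fxyd6 at 28 and 31.2 against 335 and 641 CPM (log2 -4.04 ± 0.46, adjusted p = 0.00139). The ferroxidase ceruloplasmin (Cp), the Notch regulator Dtx1 and the scavenger receptor Stab2 were at 207 and 245, 65.5 and 125 and 12.4 and 29.5 CPM in the lymphatic libraries and 12.7 and 6.24, 2.96 and 6.03 and 0.757 and 0.922 CPM in the blood libraries (adjusted p = 0.00413, 0.00253 and 0.00257). Pdpn, podoplanin, was at 0.118 and 5.07 against 19.4 and 34.1 CPM (log2 -3.42 ± 1.08, adjusted p = 0.0484). The call of Pdpn was lost with a library left out (adjusted p = 0.0928 without lymphatic library 1 and 0.192 without lymphatic library 2). The mannose receptor Mrc1 was at 22.8 and 41.6 against 135 and 280 CPM (log2 -2.69 ± 0.61, adjusted p = 0.0136; adjusted p = 0.0748 without blood library 1 and 0.0987 without lymphatic library 2); its single cells place it on the lymphatic side (218 and 242 CPM), with 1.29 and 0 CPM on the blood side and 7.07 and 4.13 CPM in leukocyte-rule cells. Leukocyte-rule cells pool all leukocytes, and 2.48% and 1.64% of them held an Mrc1 UMI, so their CPM does not give the level in macrophages. The part of macrophages in the Mrc1 call was not tested. Neurotensin (Nts) had 2 counts in blood library 1 and none in blood library 2, and was at 8.37 and 9.75 CPM in the lymphatic libraries (adjusted p = 0.00495). The 3 blood calls, Sncg, Ebf3 and Adamts5, were at 517 and 211, 35.4 and 37.7 and 5.98 and 10.1 CPM against 24.3 and 14.1, 2.84 and 4.37 and 1.35 and 0.471 CPM, with the calls of Sncg and Adamts5 lost without lymphatic library 2 (for Sncg, adjusted p = 0.0555 without lymphatic library 2; for Adamts5, 0.0589 without lymphatic library 2).

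Arterial and Notch genes were called for blood endothelium alone. Of 26 tested, 19 were higher in blood and none in lymphatic endothelium (16 and none with the endothelial scaling; median log2 3.01), and 17 members of the list, against 4 the other way, stood over 2-fold higher on the blood side in both single-cell libraries. Of the 26, 18 are endothelial-class genes, with 13 of the 19 blood calls. Cxcl12, a chemokine of arterial and stromal cells, was at 808 and 1008 CPM against 68.6 and 63.5 CPM (log2 3.78 ± 0.41, adjusted p = 0.00127). Notch4 was at 103 and 100.2 against 4.86 and 2.35 CPM (log2 4.86 ± 0.64, adjusted p = 0.0021), and the Notch ligand Jag1 at 94.3 and 60.3 against 8.1 and 4.03 CPM (log2 3.70 ± 0.53, adjusted p = 0.00257). The ephrin Efnb2 was at 121 and 97.8 against 12.2 and 8.34 CPM (log2 3.42 ± 0.62, adjusted p = 0.00594; adjusted p = 0.0662 without lymphatic library 2). The arterial connexin Gja5 was at 39.4 and 33 against 2.16 and 0.807 CPM (log2 4.68 ± 0.93, adjusted p = 0.0103; adjusted p = 0.0939 without lymphatic library 2). Fibulin 2 (Fbln2) was at 124 and 148 against 7.16 and 10.4 CPM (log2 3.95 ± 0.38, adjusted p = 0.00119). Fbln2 had UMIs in 48.55% and 51.0% of blood-side, 49.8% and 52.6% of mural-rule and 68.6% and 73.4% of stroma-rule cells. For Cxcl12 these shares were 64.5% and 56.5%, 82.7% and 84.3%, and 95.8% and 95.7%. The part of mural and stromal cells in these 2 calls was not tested. Notch1 was called with TMM (104 and 84 against 26.9 and 33.2 CPM; log2 1.64 ± 0.34, adjusted p = 0.0104; adjusted p = 0.0637 without lymphatic library 1 and 0.0525 without lymphatic library 2) but not with the endothelial scaling (adjusted p = 0.051). Its sides were nearly level, at 331 and 303 CPM (blood) and 364 and 369.5 CPM (lymphatic). The Notch targets Hes1 and Hey1 and the ligand Dll4 were not called (adjusted p = 0.0576, 0.0583 and 0.379); Hes1 was at 941 and 4481 CPM in the blood libraries and 435 and 329 CPM in the lymphatic libraries, with the single-cell sides the other way round (898 and 848 against 1945 and 1804 CPM).

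Venous genes gave 5 blood and 2 lymphatic calls of 15 tested (4 and 2 with the endothelial scaling; median log2 0.88). Vwf, von Willebrand factor, was at 681 and 658 CPM against 31.3 and 8.87 CPM (log2 5.07 ± 0.78, adjusted p = 0.0033), and the apelin receptor Aplnr at 133 and 185 against 9.18 and 4.77 CPM (log2 4.53 ± 0.44, adjusted p = 0.00119). Il6st, the shared interleukin-6 receptor subunit, was at 215 and 264 against 34.3 and 44.5 CPM (log2 2.60 ± 0.37, adjusted p = 0.0025). Madcam1, the gut homing addressin of venules, was at 651 and 390 CPM against 64.7 and 17.3 CPM (log2 3.67 ± 1.16, adjusted p = 0.0487), a call lost with the endothelial scaling (adjusted p = 0.0817) and in each fit without a library (adjusted p = 0.114 without blood library 1, 0.0807 without blood library 2, 0.0944 without lymphatic library 1 and 0.242 without lymphatic library 2), although its sides were 292 and 349 CPM (blood) and 0 and 0 CPM (lymphatic). Of 17 tip-cell and angiogenic genes, 7 were higher in blood and none in lymphatic endothelium (7 and 4 with the endothelial scaling; median log2 0.76). Esm1, a tip-cell proteoglycan, was at 424 and 441 against 47.1 and 14.9 CPM (log2 3.81 ± 0.68, adjusted p = 0.00542) and Cd34 at 581 and 515 against 60.1 and 29.5 CPM (log2 3.62 ± 0.57, adjusted p = 0.00348). Angpt2, the TIE2 ligand, was not called with TMM (33.9 and 65.6 against 172 and 169 CPM; log2 -1.78 ± 0.69, adjusted p = 0.0926) and was higher in lymphatic endothelium with the endothelial scaling (log2 -2.44, adjusted p = 0.0338).

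Of 42 basement-membrane and matrix genes tested, 25 were higher in the blood libraries and 2 in the lymphatic libraries (22 and 6 with the endothelial scaling; median log2 2.14). Only 14 of the 42 are endothelial-class genes, with 9 of the 25 blood calls and neither of the 2 lymphatic calls. Pericyte markers other than Kcnj8 were also higher in the blood libraries, at a sum of 111 and 291 CPM against 26.7 and 16.4 CPM. The part of mural cells in these calls was not tested; on the sides of the single cells, 19 members were over 2-fold higher on the blood side and 10 on the lymphatic side. Col4a1, for one, was at 977 and 857 CPM (blood), 395 and 418 CPM (lymphatic) and 840.1 and 832 CPM in mural-rule cells. Timp2, a lymphatic call, had UMIs in 90% and 92.9% of lymphatic-side cells and 92.1% and 93% of mural-rule cells. Emilin1, the other lymphatic call, had them in 60% and 77.6% of these cells in single-cell library 1. The collagen IV chains Col4a1 and Col4a2 were at 1406 and 1593 and 1015 and 951 CPM in the 2 blood libraries and at 86.5 and 70.5 and 52.1 and 31.3 CPM in the lymphatic libraries (adjusted p = 0.00142 and 0.00122). Col15a1 was at 321 and 473 CPM against 7.7 and 1.75 CPM (log2 6.45 ± 0.70, adjusted p = 0.00127). Perlecan (Hspg2) was at 204 and 384 against 9.32 and 4.64 CPM (log2 5.42 ± 0.52, adjusted p = 0.00119). Of the laminin chains, Lama3 and Lama5 were at 68.3 and 104 and 57.5 and 42.5 CPM against 2.16 and 0.672 and 1.76 and 0.941 CPM (adjusted p = 0.00122 and 0.00227), while Lama4 was not called (186 and 164 against 123 and 212 CPM; log2 0.06 ± 0.40, adjusted p = 0.934). Igfbp7 was at 13123 and 5788 CPM against 818 and 276 CPM (log2 4.11 ± 0.68, adjusted p = 0.00419). On the sides Igfbp7 was at 4443 and 3745 CPM (blood) and 177 and 335 CPM (lymphatic). Sparc, a matricellular protein, was at 3806 and 2228 against 319 and 116 CPM (log2 3.80 ± 0.63, adjusted p = 0.00418); mural-rule cells hold it at 4067 and 4131 CPM, and blood-side cells at 1247 and 885 CPM against 66.7 and 157 CPM on the lymphatic side. The 2 lymphatic calls were Timp2, a metalloproteinase inhibitor (66.3 and 121 against 309.9 and 624 CPM; log2 -2.32 ± 0.49, adjusted p = 0.011; adjusted p = 0.0541 without blood library 1 and 0.0683 without lymphatic library 2), and Emilin1, of the fibres that anchor lymphatic capillaries (14 and 9.47 against 38.1 and 115 CPM; log2 -2.70 ± 0.54, adjusted p = 0.00843). The call of Emilin1 was lost with a library left out (adjusted p = 0.0548 without blood library 2 and 0.0508 without lymphatic library 2).

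Haemostasis genes were divided, with 6 blood and 5 lymphatic calls of 22 (5 and 8 with the endothelial scaling; median log2 -0.0027). Beside Vwf, blood endothelium was higher in thrombomodulin (Thbd), at 247 and 405 CPM against 27.9 and 35.3 CPM (log2 3.37 ± 0.47, adjusted p = 0.0024), and in tissue plasminogen activator (Plat), at 289 and 286 against 36.6 and 19.8 CPM (log2 3.36 ± 0.45, adjusted p = 0.00216). Coagulation factor VIII (F8) was higher in lymphatic endothelium, at 1.21 and 1.3 CPM against 15 and 19.4 CPM (log2 -3.78 ± 0.57, adjusted p = 0.00312). Procr, the protein C receptor, was not called (69.9 and 79.4 against 28.6 and 20.2 CPM; log2 1.61 ± 0.68, adjusted p = 0.117).

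Secreted signals gave nearly equal numbers of calls, 19 for blood and 17 for lymphatic endothelium of 65 tested (15 and 19 with the endothelial scaling; median log2 0.63), and 18 members of the list were over 2-fold higher on the lymphatic side of the single cells against 16 on the blood side. Blood endothelium held the pericyte-recruiting Pdgfb at 83.7 and 82.3 CPM against 4.32 and 4.57 CPM (log2 4.22 ± 0.40, adjusted p = 0.00119). Stem cell factor (Kitl) was at 275 and 192 against 20.9 and 17.5 CPM (log2 3.60 ± 0.57, adjusted p = 0.00355). Endothelin 1 (Edn1) was at 211 and 534 against 19.3 and 8.27 CPM (log2 4.77 ± 0.79, adjusted p = 0.00421). The call of Edn1 was lost with a library left out (adjusted p = 0.0508 without lymphatic library 2). Vegfc, the ligand of VEGFR3, was a blood call, at 104 and 142 CPM against 7.97 and 3.16 CPM (log2 4.50 ± 0.82, adjusted p = 0.00615; adjusted p = 0.067 without lymphatic library 2). Vegfc stood at 84.9 and 105 CPM (blood) and 0 and 2.45 CPM (lymphatic) on the sides. Bmp4 was at 20.5 and 29.6 against 4.46 and 3.09 CPM (log2 2.75 ± 0.39, adjusted p = 0.00257), with 91.4 and 85.2 CPM in blood-side and 442 and 454 CPM in mural-rule cells.

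Cytokines and signals that act on intestinal stem cells were among the lymphatic calls. Il7, the lymphocyte survival cytokine, was at 1.56 and 1.51 CPM against 101 and 171 CPM (log2 -6.46 ± 0.47, adjusted p = 0.000598). Il7 stood at 1.29 and 0 CPM (blood) and 105 and 105 CPM (lymphatic) on the sides. Il33, the alarmin, was at 14.1 and 11 against 377 and 603 CPM (log2 -5.28 ± 0.61, adjusted p = 0.00142). Fgl2, a coagulant and immune regulator, was at 66.2 and 111 against 875 and 1629 CPM (log2 -3.82 ± 0.48, adjusted p = 0.0018). Reln was at 5.58 and 20.7 CPM against 337 and 403 CPM (log2 -4.82 ± 0.79, adjusted p = 0.00409). Of the niche signals, the Wnt enhancer Rspo3 was at 3.24 and 8 CPM against 107 and 159 CPM (log2 -4.57 ± 0.50, adjusted p = 0.00127). On the sides Rspo3 was at 1.29 and 7.3 CPM (blood) and 210.4 and 284 CPM (lymphatic). Wnt2 was at 0.189 and 10.4 against 118 and 248 CPM (log2 -5.13 ± 1.31, adjusted p = 0.0223). The call of Wnt2 was lost with a library left out (adjusted p = 0.0512 without lymphatic library 1 and 0.107 without lymphatic library 2). Tgfb3 was at 1.02 and 2.89 against 39.8 and 101 CPM (log2 -5.20 ± 0.66, adjusted p = 0.00182). Guidance cues were divided, with 3 of 10 semaphorins, slits and netrins of the list called in each direction. Sema3g, Slit2 and Slit3 were the blood calls, and each was lost without lymphatic library 2 (adjusted p = 0.111, 0.071 and 0.119). Without lymphatic library 1 Sema3g and Slit3 were not called either, nor was Slit3 without blood library 1. In single-cell library 1, Slit3 had UMIs in 8.7% of blood-side, 57.3% of mural-rule and 67.4% of stroma-rule cells. For Slit2 these shares were 2.9%, 11.7% and 35.15%, and for Sema3g 36.2%, 0.249% and 0.418%. The part of mural and stromal cells in the Slit2 and Slit3 calls was not tested. The lymphatic calls were Sema3d at 1.47 and 3.14 against 47 and 70.9 CPM, Sema3a at 0.189 and 0.587 against 15.8 and 31.2 CPM and netrin 1 (Ntn1) at 6.83 and 7.58 against 64 and 89.4 CPM (adjusted p = 0.00175, 0.00319 and 0.00126). Nppc, C-type natriuretic peptide, had a single count over both blood libraries and stood at 13.9 and 16.5 CPM in the lymphatic libraries (adjusted p = 0.00247). The chemokine Ccl2 was at 31.4 and 15.3 against 301 and 387 CPM (log2 -3.88 ± 0.64, adjusted p = 0.00423), with lymphatic-side cells at 174 and 135 CPM. Its relative Ccl7 was at 59.6 and 11.4 against 541 and 731 CPM (log2 -4.16 ± 0.79, adjusted p = 0.00699), yet at 0 and 4.89 CPM on the lymphatic side and 18 and 10.8 CPM in mural-rule cells. Ccl2 had UMIs in 18.6% of lymphatic-side, 2.17% of blood-side, 18.8% of mural-rule and 20.9% of stroma-rule cells of single-cell library 1. The part of mural and stromal cells in the Ccl2 call was not tested.

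**Figure D4:**
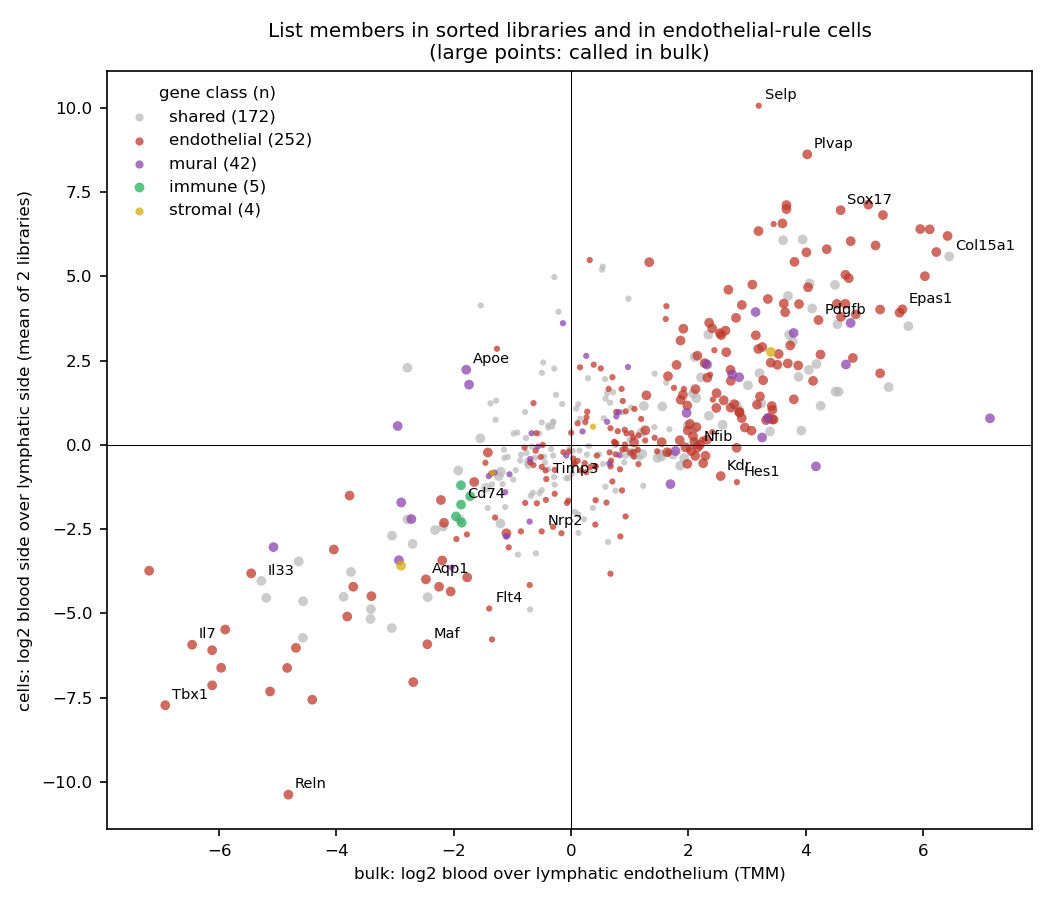
Each point is 1 of 475 list members with 10 or more UMIs on the sides: bulk log2 difference of blood over lymphatic endothelium (horizontal) against the log2 ratio of the blood over the lymphatic side of the single cells (vertical, mean of 2 libraries), coloured by gene class, with called genes drawn larger. Of 241 called genes, 214 have the same direction in both, and Apoe and Kdr do not. The lists include known vessel markers. Over all genes, 969 of 1841 blood calls and 525 of 777 lymphatic calls kept their direction in each of the 2 single-cell libraries, a stricter rule.

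The sorted libraries and the single cells share no sample, so their directions could be set side by side. Sides were compared for 10183 genes with 10 or more UMIs, of which 863 (8.47%) were over 2-fold higher on the blood side in both libraries and 1058 (10.4%) on the lymphatic side. Of 1841 bulk blood calls among them, 494 were over 2-fold higher on the blood side and 32 on the lymphatic side. Of 777 bulk lymphatic calls, 322 were over 2-fold higher on the lymphatic side and 26 on the blood side. The class of the gene divided the lymphatic calls: 140 of 165 in the endothelial class stood on the lymphatic side, 146 of 513 in the shared class and 7 of 35 in the immune class. These are 84.8%, 28.5% and 20%, beside 15.5%, 8.39% and 14.3% of all compared genes of the same classes. The immune share is near that of its class. For endothelial-class blood calls the count was 312 of 745 on the blood side, and 423 were on neither. By sign alone, 52.6% of all blood calls were above 0 in both single-cell libraries and 27.2% below 0, against 27.4% and 46.0% of all genes compared. Of the calls that went the other way, Ctsc, a lysosomal protease, was a lymphatic call (275 and 301 against 1226 and 2437 CPM) of the immune class, and Hoxa7 an endothelial-class blood call (139.5 and 110 against 48.1 and 49.6 CPM; adjusted p = 0.0538 without lymphatic library 1 and 0.0616 without lymphatic library 2, and 0.0929 with the endothelial scaling) at 89.8 and 97.9 CPM on the lymphatic side and 37.3 and 47.5 CPM on the blood side.

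Antigen presentation was called for the lymphatic libraries alone. Of 19 genes, 6 were higher in the lymphatic libraries and none in blood (12 and none with the endothelial scaling; median log2 -1.15); all 6 are MHC class II genes of the immune class. Cd74, the invariant chain, was at 4930.1 and 5341 CPM in the blood libraries and 16674 and 21024 CPM in the lymphatic libraries (log2 -1.88 ± 0.48, adjusted p = 0.0231). The call of Cd74 was lost with a library left out (adjusted p = 0.0819 without blood library 1, 0.08 without blood library 2 and 0.0784 without lymphatic library 2). H2-Ab1 was at 3104 and 2786 against 9850 and 11794 CPM (log2 -1.88 ± 0.44, adjusted p = 0.0157; adjusted p = 0.0691 without blood library 2 and 0.0596 without lymphatic library 2). H2-DMa, which loads class II peptides, was at 272 and 219 against 726 and 740.2 CPM (log2 -1.58 ± 0.33, adjusted p = 0.00997). In the single cells, Cd74 was at 50.2 and 80.3 CPM on the blood side, 205 and 232 CPM on the lymphatic side and 4238 and 4662 CPM in leukocyte-rule cells. MHC class I was in every library at high level and not called: H2-K1 was at 3421 and 2368 against 3786 and 4039 CPM and B2m at 25399 and 7835 against 16581 and 9988 CPM (adjusted p = 0.524 and 0.739).

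Many markers of plasma cells, macrophages and B cells were higher in the lymphatic libraries. Of 9 plasma-cell markers, 8 were higher in the lymphatic libraries, and their summed level was 5267 and 5433 CPM in the blood libraries against 174270 and 68756 CPM in the lymphatic libraries. Jchain alone was at 4599.7 and 4656 CPM against 167080 and 64317 CPM (log2 -4.64 ± 0.71, adjusted p = 0.00323), and at 351 and 379.7 CPM in blood-side, 336 and 340.2 CPM in lymphatic-side and 66650 and 69697 CPM in plasma-rule cells. Of 20 macrophage and dendritic-cell markers, 8 were higher in the lymphatic libraries and 2 in blood; the sums were 7272 and 4591 CPM against 16671 and 20220 CPM. Lysozyme 2 (Lyz2) was at 1511 and 1064 against 6874 and 8799.8 CPM (log2 -2.61 ± 0.44, adjusted p = 0.00456) and at no more than 6.08 CPM on either side of the single cells, and the haemoglobin scavenger Cd163 at 3.17 and 2.85 against 21.9 and 67.3 CPM (log2 -3.89 ± 0.63, adjusted p = 0.00392). Of 8 B-cell markers, 4 were higher in the lymphatic libraries (summed 174 and 85.7 against 2316 and 754 CPM), as were 4 of 8 pan-leukocyte markers (2383 and 3182 against 5690 and 3871 CPM). Of 14 T, NK and innate lymphoid markers, none was called in either direction, at sums of 644, 620, 1078 and 249 CPM. The part of these cells in each lymphatic call was not tested; when the immune-class genes were left out before scaling, 2036 genes were higher in blood and 1295 in lymphatic endothelium.

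**Figure D5:**
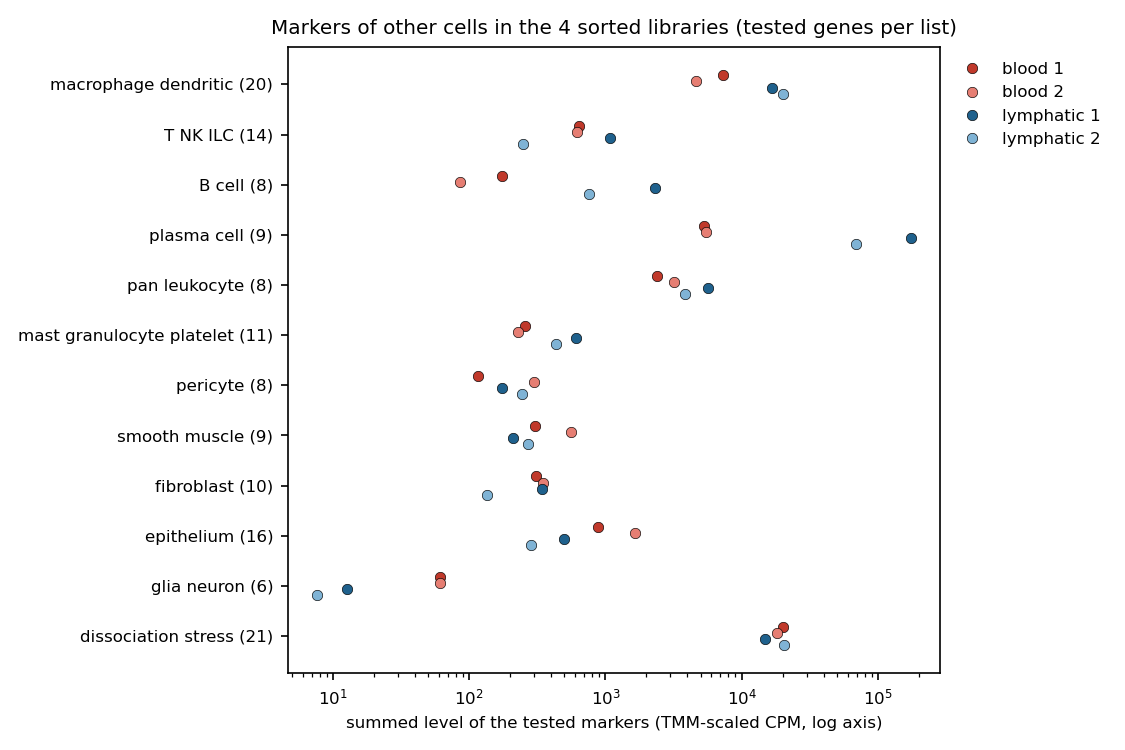
Summed level of the tested markers of each other cell type (horizontal axis, TMM-scaled CPM, log scale; number of markers in brackets) in the 4 sorted libraries (points). Plasma-cell markers lie at 174270 and 68756 CPM in the lymphatic libraries and at 5267 and 5433 CPM in the blood libraries.

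Apoe, the apolipoprotein E gene, and Xbp1 had opposite directions in bulk and in the endothelial cells. Apoe was a lymphatic call at 4908 and 3808 CPM against 12960 and 17130 CPM (log2 -1.79 ± 0.44, adjusted p = 0.02). The call of Apoe was lost with a library left out (adjusted p = 0.0906 without blood library 2 and 0.0713 without lymphatic library 2). In the single cells it was higher on the blood side (263 and 169 CPM) than on the lymphatic side (28.2 and 63.6 CPM), with 183 and 156 CPM in leukocyte-rule and 1264 and 1249.6 CPM in mural-rule cells. Xbp1, the secretory-pathway factor of plasma cells, was likewise a lymphatic call (342 and 425 against 2380.1 and 1695 CPM; log2 -2.41 ± 0.38, adjusted p = 0.00361) with the sides reversed (466 and 377 against 179.6 and 159 CPM) and 1097 and 1029 CPM in plasma-rule cells.

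Mural, stromal and epithelial markers were called mainly for the blood libraries. Of 8 pericyte markers, 6 were higher in blood and 1, Kcnj8, in lymphatic endothelium. Their sums were 115 and 297 CPM against 174 and 243 CPM. Without Kcnj8 the pericyte sums were 111 and 291 CPM against 26.7 and 16.4 CPM, higher in both blood libraries. Smooth-muscle markers summed to 302 and 559 CPM against 208 and 269 CPM. Fibroblast markers summed to 309 and 346 CPM against 342 and 135 CPM, and without decorin (Dcn) to 104 and 180 CPM against 89.6 and 44.2 CPM. The sums of epithelial markers were 887 and 1659 CPM against 499.9 and 285 CPM. Rgs5 was at 65.2 and 175 CPM against 16.5 and 7.06 CPM (log2 3.36 ± 0.68, adjusted p = 0.00923; adjusted p = 0.0783 without lymphatic library 2), with 1194 and 1214 CPM in mural-rule cells. Kcnj8, the lymphatic call, is the potassium channel subunit that also marks pericytes. It was at 4.14 and 6.87 CPM against 147 and 226 CPM (log2 -5.09 ± 0.64, adjusted p = 0.00177), is of the endothelial class and was at 187 and 164 CPM on the lymphatic side. Of 9 smooth-muscle markers 3 were higher in blood with TMM and none with the endothelial scaling, and of 10 fibroblast markers 4 and 3. Myh11 was at 18.3 and 97.2 against 8.64 and 6.66 CPM (adjusted p = 0.163 without blood library 2, 0.105 without lymphatic library 1 and 0.16 without lymphatic library 2) and Col1a1 at 3.22 and 18.2 against 1.35 and 1.14 CPM (adjusted p = 0.194 without blood library 2, 0.116 without lymphatic library 1 and 0.173 without lymphatic library 2), both highest in blood library 2; neither was called with the endothelial scaling (adjusted p = 0.0565 and 0.0619). Decorin (Dcn) was at 205 and 167 against 252 and 90.9 CPM and was not called (log2 0.12 ± 0.57, adjusted p = 0.906); sorted PDGFRAlo stromal libraries of the same study held it at a mean of 21118 CPM. Of 16 epithelial markers, 5 were higher in blood: the Paneth-cell defensin Defa24, which has near-identical copies, was at 166 and 709 CPM against 10.4 and 1.21 CPM (log2 6.29 ± 1.05, adjusted p = 0.00423). Of 6 glial and neuronal markers 1 was higher in blood, and of 11 mast-cell, granulocyte and platelet markers, 2 were higher in each direction. Of 21 genes induced by tissue dissociation, 3 were higher in blood and none in lymphatic endothelium (2 and 2 with the endothelial scaling). The blood share is near the 14.7% of all genes. Fos was at 3004 and 2399.8 against 2512 and 3343 CPM (log2 -0.12 ± 0.53, adjusted p = 0.902). Haemoglobin genes did not pass the filter on low counts, and the 1 erythroid gene tested, Alas2, was not called (adjusted p = 0.141).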

How the data were processed

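The bulk values are raw gene counts, deposited by the authors as a single table of 8 libraries. Per the submitters' processing notes, STAR and mm10 were used for the series; which program counted the reads, its strand setting and the annotation are not stated there or in the labels. The single-cell counts are UMI counts deposited by the authors as filtered matrices; the notes name Cell Ranger 2.1.1 and 3.0.2. Of 24969 gene names, 26 had been turned into dates and were left out, 24802 matched a current symbol and 59 a synonym. All 8 libraries (4 groups of 2) were fitted in edgeR 4.0.16 (R 4.3.3) with filterByExpr, TMM and the quasi-likelihood F-test on 4 residual degrees of freedom, and p-values were adjusted over all 14893 genes by Benjamini-Hochberg, with 0.05 as the threshold. The alternatives are listed with their effects at the end.

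Cells of the 2 whole-mesenchyme libraries were kept with at least 500 genes and at most 10% mitochondrial UMIs. Scrublet's automatic threshold marked 6 doublets in 1 library, so a common score of 0.25, chosen after the data were seen, removed 98 and 113. Classes were set by UMIs: endothelial as in the text; leukocyte, Ptprc without Cdh5 or Pecam1; plasma rule, 2 or more of Mzb1; mural, 2 or more of Rgs5, Notch3, Cspg4 and Myh11; stroma, Pdgfra. UMIs were summed over each class and library and scaled to CPM. A gene was called endothelial where its CPM there exceeded each other class in both libraries, immune, mural or stromal where that class held at least 4 times the endothelial CPM, and thin under 10 UMIs. A side had to be over 2-fold higher in both libraries with 10 or more UMIs. These are descriptions without a test, and free RNA was not removed.

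In each list the text names up to 4 called genes per direction with the highest level and up to 2 not called, and over all genes the 8 endothelial-class genes with the largest fold per direction at 20 CPM or more. Further genes were named after their values were seen. The comparison, lists and rules were chosen with earlier results of these data known. Promoters are from RefSeq (GRCm38.p6). One list member is not reported here.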

Additional observations from a re-analysis of the deposited data

How the results depend on the processing

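Of the main counts, 2183 genes higher in blood and 1239 higher in lymphatic endothelium, tests against a fold of 2 left 934 and 469, scaling on endothelial genes gave 1118 and 3718, and a fit of endothelial genes alone gave 567 and 434 (fewer genes tested). DESeq2 called 1932 genes higher in lymphatic endothelium. Leaving out 1 library gave 770 to 1954 blood and 398 to 1010 lymphatic calls; the fewest came without lymphatic library 2, where the lone library is taken to vary like the other groups. Over the 15 lists together, 184 blood calls became 104 with endothelial genes alone and 103 to 158 without 1 library. The 76 lymphatic calls became 45 against a fold of 2, 135 with endothelial scaling, 50 with endothelial genes alone and 38 to 66 without 1 library. Pecam1 kept its direction but not its call against a fold of 2 (log2 2.41, adjusted p = 0.0816, edgeR) and with endothelial scaling (log2 1.74, adjusted p = 0.0528); without 1 library it was 2.11 to 2.81. A class ratio of 2 in place of 4 gave 46 immune and 311 mural blood calls and 375 and 176 lymphatic calls; a ratio of 10 gave 77 mural blood calls and 99 immune and 38 mural lymphatic calls. No called gene named here changed direction, but with endothelial scaling the balance turned from more blood to more lymphatic calls. Except for fewer genes or libraries, the cause was not tested.

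With the replicate number as a block in the fit, 2145 genes were higher in blood and 1193 in lymphatic endothelium, 2038 and 1124 of them also called without it. Deviations of same-numbered libraries correlated at 0.19 over genes, but only 2 libraries per group carry numbers, so the numbers were not taken to pair them. With 2 libraries a group and 4 residual degrees of freedom, a gene that was not called is not shown to be level, and the shallowest library (8549348 counts) limits low lymphatic levels.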

Other observations

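The other 4 bulk libraries of the study, sorted telocytes and PDGFRAlo stromal cells, show which signals of the endothelium are also held by stroma. Bmp4, a BMP ligand and a blood call, was far higher in telocytes (1074 and 994 CPM) and PDGFRAlo cells (431 and 389 CPM) than in either endothelium (20.5 and 29.6 and 4.46 and 3.09 CPM). Cxcl12, also a blood call, was at 2887 and 3624 CPM in telocytes and 1528 and 1663 CPM in PDGFRAlo cells. Of the lymphatic calls, Rspo3 was at 21 and 29.3 CPM in telocytes and 67.6 and 80.3 CPM in PDGFRAlo cells, below both lymphatic libraries (107 and 159 CPM). Il7 (1.5 and 2.54 and 5.42 and 7.62 CPM), Wnt2 (0.0713 and 0 and 4.16 and 2.26 CPM) and Reln (1.07 and 0.121 and 22.7 and 13.6 CPM) were lower in every stromal library than in either lymphatic library (101 and 171, 118 and 248 and 337 and 403 CPM). These are levels without a test between endothelium and stroma.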
